A study of Mus musculus with 12 samples.

Results

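The pore-forming alpha-1 subunits of voltage-gated calcium channels are described here through 8 genes: Cacna1a, Cacna1b, Cacna1c, Cacna1d, Cacna1e, Cacna1g, Cacna1h and Cacna1i. They were taken by name, not by their values, from a table of 33250 gene symbols, and all 8 passed the low-count filter that left 19325 genes for testing. The table holds estimated read counts of polyA RNA from bulk hippocampus of 12 male mice. By their labels, 6 animals (cKO) lack a genomic miRNA cluster, Mir379 through Mir410, in cells with Emx1-driven Cre recombinase, and the other 6 are wild type (WT). Emx1 is active in excitatory neurons and also in glia of the dorsal forebrain, and other cells of the tissue keep the cluster. The labels state neither the animals' age nor whether WT animals carried Cre or floxed alleles. The design asks how the hippocampal transcriptome differs between these genotypes. In bulk tissue, fewer cells of a type and less RNA per cell cannot be told apart.

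Voltage-gated calcium channels open when the membrane depolarises and let calcium into the cell, where it triggers transmitter release, shapes firing and drives signalling to the nucleus. Each channel is built around a pore-forming alpha-1 subunit, which forms the ion path and the voltage sensor, and in the Cav1 and Cav2 families it assembles with beta and alpha-2-delta subunits. The Cav2 pores (Cacna1a, Cacna1b and Cacna1e) carry the P/Q-, N- and R-type currents of nerve terminals and dendrites, the Cav1 pores (Cacna1c and Cacna1d) carry L-type currents of the cell body and dendrites, and the Cav3 pores (Cacna1g, Cacna1h and Cacna1i) carry low-voltage-activated T-type currents.

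Library totals ranged from 44803793 to 51095816 counts in cKO and from 42360624 to 50804084 counts in WT. Mirg, a long non-coding RNA annotated over the cluster, was at 23.6 to 46.4 CPM (counts scaled to the library total after TMM normalization) in cKO and 28.4 to 34.1 CPM in WT, so its level does not check the deletion. The library labelled cKO 1 stood apart from its group at the upstream transcript B830012L14Rik, with 0.788 CPM where cKO 2 to 6 had 17.4 to 25.8 CPM, and lay inside the WT range of 0.310 to 0.865 CPM. It was kept in the cKO group as labelled, and the result of Cacna1e is also given without it. Summed pan-neuronal markers (Rbfox3, Map2, Tubb3, Stmn2, Syt1, Snap25 and Nefl) were at 5067 to 5695 CPM in cKO and 5125 to 5875 CPM in WT, and CA1 and dentate granule markers were detected in every library.

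The cluster is shown here because its labelled loss defines the genotypes. In the RefSeq annotation of GRCm38.p6 it lies on the plus strand of chromosome 12, from 109709060 to 109743795. It holds 69 mature miRNA sequences with 63 distinct seeds (bases 2 to 8). The libraries do not measure miRNAs, so which of these are present in the tissue was not tested. The following mature sequences have their seed in capitals and were chosen because the 3′ UTR of Cacna1e holds a match to each that is followed by an A.
mmu-miR-134-5p: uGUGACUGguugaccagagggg
mmu-miR-134-3p: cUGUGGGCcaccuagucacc
mmu-miR-369-3p: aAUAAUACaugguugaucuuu
mmu-miR-377-3p: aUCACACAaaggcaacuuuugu
mmu-miR-1197-3p: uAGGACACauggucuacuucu
mmu-miR-668-5p: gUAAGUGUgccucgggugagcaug
These 6 seeds differ from each other, so no pair of them shares a match.

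Seed matches were counted on the mRNA strand in the longest annotated 3′ UTR of each gene (GENCODE, GRCm38). Over the 8 pore genes there were 123 matches in 24859 bases, or 4.95 per kilobase, against 4.17 per kilobase over the 15252 3′ UTRs searched. Cacna1c had the most matches, 42 in 6652 bases, a rate that 14.2% of all 3′ UTRs reached. They include overlapping matches to GTTTGTT in a repeat, each of them counted. Cacna1e had 30 in 7662 bases, a rate of 3.92 per kilobase that 50.4% of all 3′ UTRs reached. Cacna1d had the highest rate, 7.97 per kilobase from 17 matches in 2132 bases, and Cacna1b had 17 in 2683 bases. The UTRs of the other 4 were shorter or poorer in matches, with 1 in Cacna1a, 2 in Cacna1g, 5 in Cacna1h and 9 in Cacna1i. A match is a run of letters and does not show that a miRNA acts there.

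The 7 matches of Cacna1e that are followed by an A are printed below with their surroundings, mRNA strand, written with T and with the match in capitals. All lie in the 3′ UTR on the minus strand of chromosome 1.
miR-134-3p, chr1:154397583-154397609: aggttctccaggGCCCACAaaggtgcc
miR-369-3p, chr1:154395848-154395874: taaagatatcaaGTATTATagctgtgg
miR-377-3p, chr1:154394950-154394976: ccacaggttcttTGTGTGAactgtagt
miR-134-5p, chr1:154394180-154394206: catgtaggtgacCAGTCACagcgtgat
miR-1197-3p, chr1:154393476-154393502: actggaaggttaGTGTCCTaaccttct
miR-668-5p, chr1:154392446-154392472: ttctctttgtggACACTTAagtcagag
miR-668-5p, chr1:154391664-154391690: accaatggagaaACACTTAatgcacta
The letters ACACTTA stood in 9.52% of all 3′ UTRs searched, GTATTAT in 10.2%, CAGTCAC in 12.02%, GCCCACA in 12.3%, GTGTCCT in 15.96% and TGTGTGA in 21.7%.

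The match to miR-134-5p, a miRNA known for its part in dendritic spine growth, recurred in 3 further pore genes, all on the minus strand.
Cacna1b, chr2:24605942-24605968: gattctggttttCAGTCACaacacttt
Cacna1c, chr6:118591834-118591860: ggagctggtgagCAGTCACtggatgga
Cacna1d, chr14:30041721-30041747: taaaggtgatgaCAGTCACcacgcctg
In Cacna1b the match overlaps by 5 bases one to miR-758-3p, GTCACAA. The 4 T-type and P/Q-type genes, Cacna1a, Cacna1g, Cacna1h and Cacna1i, had no CAGTCAC in the UTR searched.

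All 8 pores were detected in every library. The lowest count of any member in any library was 3360 reads, for Cacna1d. The other alpha-1 genes were close to the floor in this tissue. Cacna1f, the L-type pore of retinal photoreceptors, had 5 to 17 counts and failed the low-count filter, and Cacna1s, the skeletal muscle pore, had 13 to 33 counts.

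Levels of different genes were compared as CPM per kilobase of merged annotated exons. Cacna1e stood highest in both genotypes, with 19.7 ± 1.06 in cKO and 23.5 ± 2.00 in WT (SD, n = 6 each). Cacna1h followed with 19.6 ± 1.99 in cKO and 19.3 ± 1.73 in WT, then Cacna1a with 17.2 ± 0.693 in cKO and 18.7 ± 0.876 in WT, and Cacna1b with 15.7 ± 1.04 in cKO and 16.3 ± 1.27 in WT. In cKO the lead of Cacna1e over Cacna1h was a ratio of 1.00, with Cacna1e ahead in 4 of 6 libraries, whereas in WT the ratio was 1.22 and Cacna1e was ahead in 6 of 6. The ranges of Cacna1e and Cacna1h overlapped in both genotypes, and those of Cacna1a and Cacna1b overlapped in cKO but not in WT.

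The other 4 pores were lower per kilobase. Cacna1g was at 10.04 ± 2.02 in cKO and 10.4 ± 0.827 in WT, and Cacna1i at 10.4 ± 0.892 in cKO and 10.1 ± 0.971 in WT, so this pair overlapped and changed places between genotypes. Cacna1c was at 8.07 ± 0.409 in cKO and 8.17 ± 0.801 in WT. Cacna1d was lowest at 5.98 ± 0.155 in cKO and 6.26 ± 0.311 in WT, with no overlap with Cacna1c in either genotype. A gap without overlap also separated Cacna1b from the next pore below, by a ratio of 1.51 in cKO and 1.58 in WT.

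**Figure D1:**
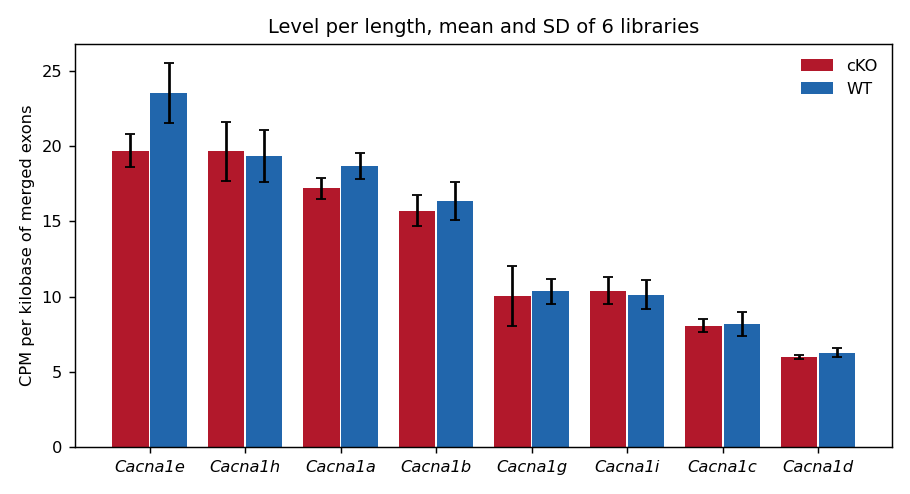
Level of each pore gene in CPM per kilobase of merged exons (y axis), cKO in red and WT in blue, as the mean of 6 libraries with the SD as error bar. Cacna1e is highest and Cacna1d lowest in both genotypes, at 19.7 and 5.98 in cKO and 23.5 and 6.26 in WT.

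The length used sets part of this order. With the longest transcript of each gene in place of merged exons 25 of 28 pairs of genes kept their WT order, and with the mean length of coding transcripts 23 of 28 did. Cacna1e stayed first and Cacna1d last with each of the 3 lengths, and Cacna1i moved most, to the third place with mean coding length. Its 4 annotated coding transcripts average 2817 bases, while its longest transcript has 9781.

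Summed per kilobase, the Cav2 pores made up 49.3 ± 1.55% of the 8-gene total in cKO and 51.9 ± 1.39% in WT. The Cav3 pores made up 37.5 ± 1.74% in cKO and 35.3 ± 1.35% in WT, and the Cav1 pores 13.2 ± 0.442% in cKO and 12.8 ± 0.306% in WT. Cacna1e alone took 18.5 ± 1.35% in cKO and 20.8 ± 0.721% in WT (SD, n = 6 each). Its share ranged from 16.9 to 20.3% in cKO and from 19.9 to 22.1% in WT, so the groups overlapped. These shares use merged exons alone and were not computed with the other lengths, so their SDs leave out the choice of length. They are descriptions and were not tested.

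No pore gene passed an adjusted p of 0.05 between genotypes by edgeR's quasi-likelihood test. Over all genes the same rule called 0.0103%, 2 of 19325. Of the 8 members 6 were lower and 2 higher in cKO by point estimate, with a median log2 fold change of -0.05 against 0.01 over all genes tested. With 1 library left out that median lay between -0.10 (without WT 1) and -0.03. At an unadjusted p under 0.05, 2 members, Cacna1e and Cacna1a, were lower and none was higher, where 6.34% of all genes were lower, 3.2% higher and 9.54% either by the same rule. No member had its 2 groups apart, where in 0.223% of all genes every cKO library lay below every WT library and in 0.181% every one lay above.

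Cacna1e, the R-type pore (Cav2.3) of dendrites and spines, showed the lowest p of the family. Its locus is chr1:154390731-154884501, minus strand, a span of 494 kilobases, with no other annotated gene overlapping it. The libraries labelled cKO 1 to 6 had 540.2, 498, 458, 484, 496 and 506 CPM, and WT 1 to 6 had 498, 611, 588, 596, 645 and 619 CPM. Every cKO library lay below WT 2 to 6, while WT 1 lay among the cKO libraries, below cKO 1 and cKO 6. The means were 497 ± 26.8 CPM in cKO and 593 ± 50.5 CPM in WT (SD, n = 6 each). The log2 fold change was -0.25 ± 0.06 (SE), with a 95% interval of -0.38 to -0.13, a level 16.2% lower by point estimate.

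Cacna1e had an unadjusted p of 0.000585, the 37th smallest of 19325 genes, and an edgeR adjusted p of 0.305. DESeq2, fitted to the same genes, gave an adjusted p of 0.00833 and called it, the only member it called. Over all genes DESeq2 called 76 of 19325. Without WT 1 edgeR's adjusted p was 0.0541, with a log2 fold change of -0.31. Without the library labelled cKO 1 it was 0.0883, with -0.29. With 1 library left out in turn, the log2 fold change lay between -0.31 and -0.23 in all 12 fits. Markers of several cell types were also mostly lower in cKO by point estimate, and no marker listed passed the adjusted threshold. Dentate granule markers were lower at 8 of 9 genes, with a median log2 fold change of -0.16 and summed levels of 515 to 812 CPM in cKO and 687 to 808 CPM in WT. Oligodendrocyte markers were lower at 8 of 8 genes, with summed levels of 2621 to 4352 CPM in cKO and 3225 to 4884 CPM in WT. CA1 markers were lower at 6 of 7 genes, pan-neuronal markers at 5 of 7 and microglial markers at 5 of 6. Most markers of CA2 and CA3 (5 of 7), interneurons (7 of 8), thalamus (5 of 6) and astrocytes (4 of 6) were higher instead. All markers of striatum (6), smooth muscle (7) and choroid plexus (8) were higher, and oligodendrocyte precursor markers were split 2 and 2. None of these markers was at 0 in any library, and their part in the result of Cacna1e was not tested.

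Within each library the level of Cacna1e was also set against each of the other 7 pores as a ratio of CPM. Its ratio to Cacna1c was 2.49 to 3.12 in cKO and 3.26 to 3.71 in WT, without overlap. Its ratio to Cacna1b was 2.76 to 3.553 in cKO and 3.559 to 3.85 in WT, where the highest cKO library lay just below the lowest WT library. The ratios to the remaining 5 pores overlapped between genotypes. Of the 10338 other genes of at least 10 CPM, 3.48% gave a ratio with every cKO library below every WT library.

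Cacna1a, the P/Q-type pore (Cav2.1) that supplies most calcium for transmitter release at central synapses, was the other member at an unadjusted p under 0.05. The gene occupies chr8:84388440-84640246, plus strand. In cKO 1 to 6 it had 205, 201, 199.6, 195, 195 and 182 CPM, and WT 1 to 6 had 199.9, 208, 219.5, 211, 229 and 211 CPM. All 6 cKO libraries were below the WT median and 4 were below every WT library, with WT 1 again the lowest of its group. The means were 196 ± 7.91 CPM in cKO and 213 ± 10.002 CPM in WT, a log2 fold change of -0.12 ± 0.04 (SE) with a 95% interval of -0.20 to -0.04. Its unadjusted p was 0.0065 and its edgeR adjusted p 0.357.

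Cacna1b, the N-type pore (Cav2.2), the other main channel of release sites, occupies chr2:24603887-24763152, minus strand. Levels in cKO 1 to 6 were 152, 158, 157, 175, 147 and 149 CPM, and WT 1 to 6 had 137, 169.5, 165, 163, 167 and 171 CPM. All cKO libraries but cKO 4 lay below WT 2 to 6, and the groups overlapped through WT 1, which stood below every other library, and cKO 4, which stood above them all. Its log2 fold change was -0.05 ± 0.06 (SE), with a 95% interval of -0.18 to 0.07 and an edgeR adjusted p of 0.811. Without WT 1 the value was -0.11, with an edgeR adjusted p of 0.295.

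**Figure D2:**
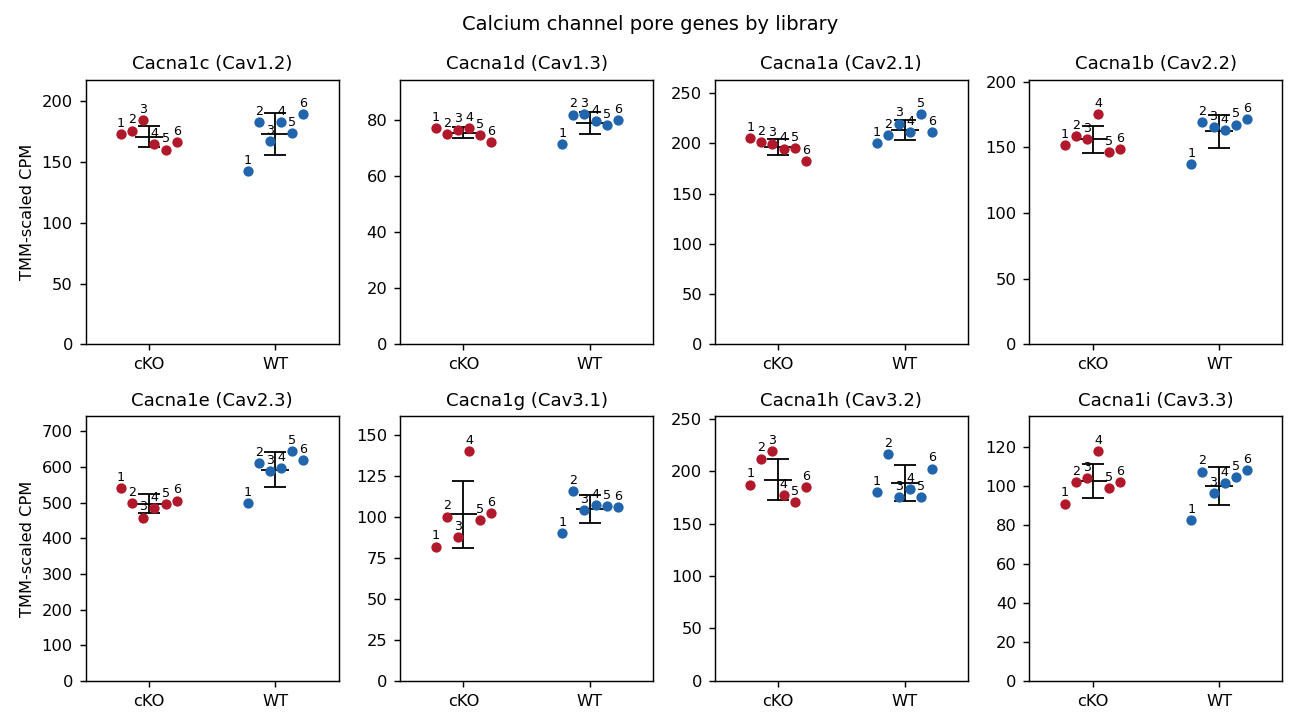
TMM-scaled CPM (y axis, from 0) of each pore gene in every library, cKO in red and WT in blue, with the animal number beside each point and the mean and SD of 6 libraries in black. Cacna1e reads 458 to 540.2 CPM in cKO and 588 to 645 CPM in WT 2 to 6, with WT 1 at 498 CPM.

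Of the L-type pores, Cacna1c (Cav1.2), the main L-type channel of brain and of the heart and smooth muscle, was at 171 ± 8.67 CPM in cKO and 173 ± 17.0 CPM in WT (SD, n = 6 each). Its locus is chr6:118587240-119196418, minus strand, and it is the longest member, with a span of 609 kilobases. In cKO 1 to 6 it had 173, 176, 184, 165, 160.2 and 167 CPM, and WT 1 to 6 had 142, 183, 167, 183, 174 and 189 CPM. The groups overlapped, and WT 1 was the lowest library of all. The log2 fold change was -0.02 ± 0.06 (SE), with a 95% interval of -0.15 to 0.11.

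Smooth muscle also expresses Cacna1c, and markers of that cell type were measured beside it. All 7 smooth muscle markers (Acta2, Tagln, Myh11, Cnn1, Lmod1, Myl9 and Des) were higher in cKO by point estimate, with summed levels of 89.7 to 140.0 CPM in cKO and 49.9 to 86.6 CPM in WT. All 7 were at an unadjusted p under 0.05, where 3.2% of all genes were higher by that rule, and none passed the adjusted threshold. Their part in the level of Cacna1c was not tested.

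Cacna1d (Cav1.3), an L-type pore that opens at more negative voltages and supports pacemaking, had the smallest spread of the family within cKO, a coefficient of variation of 2.60% against 4.97% in WT. Its locus is chr14:30039939-30491455, minus strand. By library, cKO 1 to 6 had 77.1, 75.0, 76.7, 77.3, 74.8 and 72.1 CPM, and WT 1 to 6 had 71.6, 82.0, 82.2, 79.8, 78.1 and 80.1 CPM. All 6 cKO libraries lay below WT 2 to 6, and WT 1 lay below them all. Its log2 fold change was -0.06 ± 0.03 (SE), with a 95% interval of -0.14 to 0.01 and an edgeR adjusted p of 0.592. Without WT 1 the value was -0.10, with an edgeR adjusted p of 0.129. Chdh on the opposite strand shares 589 bases with its exons, 4.67% of them, and had 235 to 828 counts. Without a stated strand setting, reads of the shared bases cannot be told apart.

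Of the T-type pores, Cacna1g (Cav3.1), which drives burst firing in thalamic relay neurons and is also found in the hippocampus, varied most in cKO and least in WT. The gene occupies chr11:94408391-94474198, minus strand. Levels in cKO 1 to 6 were 82.0, 100.2, 87.5, 140.3, 98.1 and 103 CPM, and WT 1 to 6 had 90.0, 116, 104, 107, 106 and 106 CPM. The coefficient of variation was 20.1% in cKO and 7.98% in WT, with cKO 4 far above the rest and cKO 1 below them all. The log2 fold change was -0.04 ± 0.11 (SE), with a 95% interval of -0.28 to 0.19, and without cKO 4 it was -0.16.

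The library cKO 4 also differed in tissue markers. Its summed dentate granule markers were at 515 CPM, where the remaining cKO libraries had 615 to 812 CPM and WT libraries 687 to 808 CPM in WT. Its choroid plexus markers were at 54.9 CPM, against 3314 to 5457 CPM in the remaining cKO animals and 84.1 to 8173 CPM in WT. Its oligodendrocyte markers, at 2621 CPM, were the lowest and its interneuron markers, at 832 CPM, the highest of the 12 libraries, and its CA1 markers, at 929.5 CPM, the highest of cKO. Their part in the level of Cacna1g was not tested.

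Cacna1h (Cav3.2), a T-type pore that is found in dentate granule cells among others, was at 192 ± 19.4 CPM in cKO and 189 ± 16.9 CPM in WT (SD, n = 6 each). The gene occupies chr17:25374285-25433783, minus strand. By library, cKO 1 to 6 had 187, 212, 219, 177, 171 and 184 CPM, and WT 1 to 6 had 180.1, 216, 175, 183, 175 and 202 CPM. It was the only member whose lowest WT library was not WT 1, and each group covered much the same range. Its log2 fold change was 0.02 ± 0.07 (SE), with a 95% interval of -0.13 to 0.18.

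Cacna1i (Cav3.3), the T-type pore with the slowest gating, was at 103 ± 8.80 CPM in cKO and 99.9 ± 9.57 CPM in WT. Its locus is chr15:80287238-80398279, plus strand. In cKO 1 to 6 it had 90.9, 102, 104, 118, 99.0 and 102 CPM, and WT 1 to 6 had 82.4, 107, 96.3, 101, 104 and 108 CPM. The log2 fold change was 0.04 ± 0.07 (SE), with a 95% interval of -0.11 to 0.19. Its highest library, cKO 4, was also the highest for Cacna1b, Cacna1d and Cacna1g among the cKO animals.

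**Figure D3:**
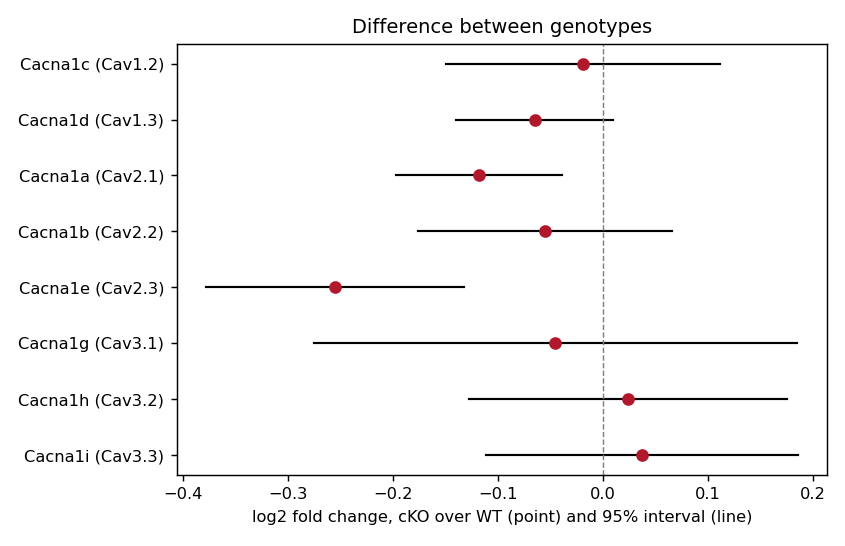
Log2 fold change of each pore gene, cKO over WT (x axis; point), with its 95% interval from edgeR (line). The intervals of Cacna1e (-0.38 to -0.13) and Cacna1a (-0.20 to -0.04) lie below 0 before adjustment over all genes, and the other 6 include 0.

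Some libraries stood high or low at most of the pore genes together. WT 1 was the lowest WT library at 7 of the 8 genes and lay below the 12-library mean at all 8, with a median log2 difference from that mean of -0.15. WT 2 and WT 6 lay above the mean at all 8, with medians of 0.09 and 0.10. Among cKO libraries cKO 5 was below the mean at all 8, with -0.08. WT 1 also had the most choroid plexus marker signal of all libraries, 8173 CPM, and the fewest pan-neuronal marker counts of WT, 5125 CPM, and their part in its pore gene levels was not tested. Without WT 1, 4 members instead of 2 were lower at an unadjusted p under 0.05, and none passed the adjusted threshold. Over all genes the same omission gave 1833 of 19492 lower by that rule, against 1225 of 19325 with all libraries.

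**Figure D4:**
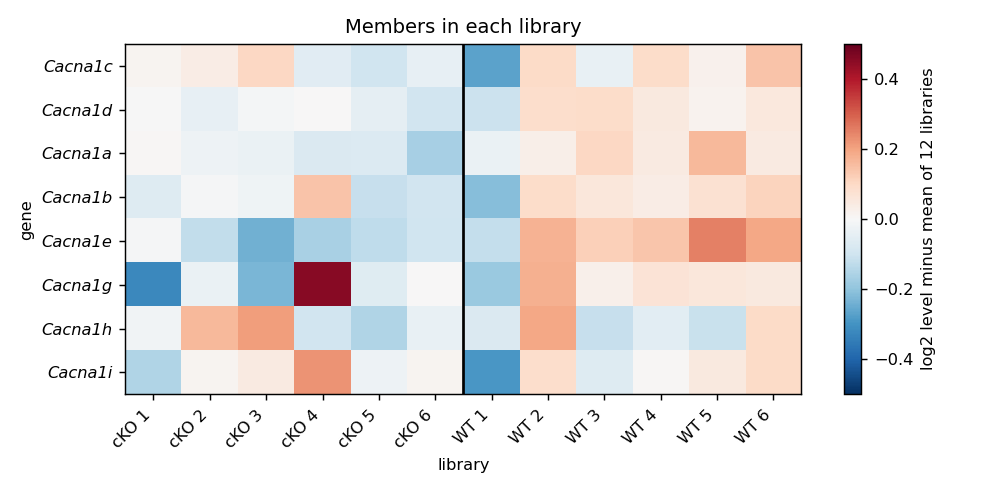
Log2 level of each pore gene in each library minus the mean of that gene over the 12 libraries (colour scale), cKO left of the line and WT right of it. The WT 1 column is below the mean at all 8 genes, and Cacna1e is above it in WT 2 to 6.

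Pore genes are long, and in these libraries the difference between genotypes moved with gene span. Among protein-coding genes of at least 10 CPM, those spanning under 10 kilobases had a median log2 fold change of 0.03 (2006 genes), and those of at least 300 kilobases had -0.06 (419 genes). By point estimate 25.4% of the shortest class and 81.1% of the longest were lower in cKO. The share was 53.3% at 30 to 100 kilobases and 70.3% at 100 to 300. At an unadjusted p under 0.05, 23 of the shortest class and 100 of the longest class, or 23.9%, were lower in cKO. Cacna1c, Cacna1d and Cacna1e belong to the longest class, Cacna1a, Cacna1b and Cacna1i to the class of 100 to 300 kilobases, where 18.7% of 1318 genes were lower by that rule, and Cacna1g and Cacna1h to that of 30 to 100 kilobases, where 8.28% of 3166 were. Cacna1c, with -0.02, and Cacna1d, with -0.06, stood beside a class median of -0.06, and Cacna1b, with -0.05, beside one of -0.04. In the class of Cacna1b, Cacna1a lay lower, with -0.12, and Cacna1i higher, with 0.04. Cacna1e, with -0.25, lay below the median of the longest class. Among the 419 longest genes 26, Cacna1e included, were at or below its log2 fold change. The part of gene span in the result of Cacna1e was not tested.

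**Figure D5:**
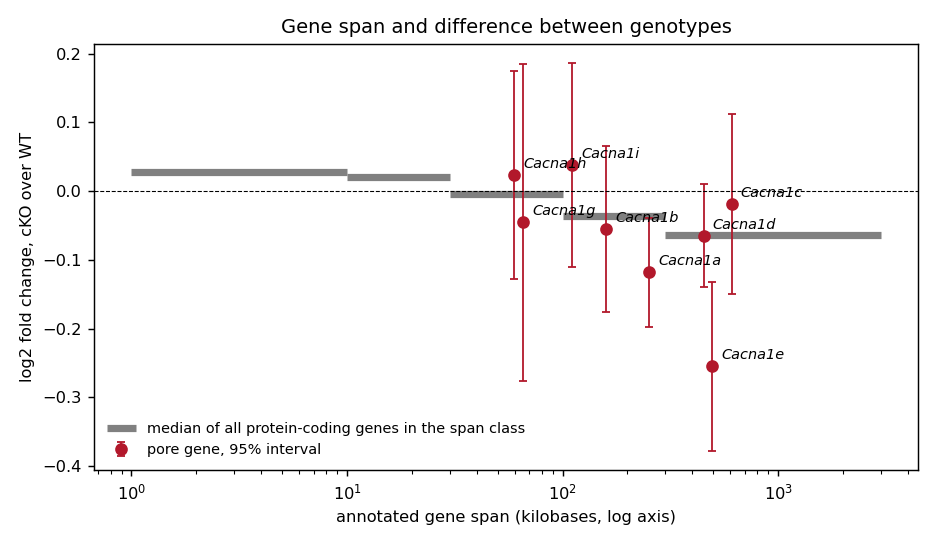
Log2 fold change, cKO over WT (y axis), of each pore gene with its 95% interval against annotated gene span in kilobases (log x axis). Grey bars give the median of all protein-coding genes of at least 10 CPM in 5 span classes, from 0.03 in the shortest to -0.06 in the longest. Cacna1e, at -0.25, lies below the bar of its class.

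Long genes were also examined library by library. The 1737 genes of at least 100 kilobases had a median log2 difference from the 12-library mean of -0.05 to 0.00 in cKO and 0.02 to 0.08 in WT 2 to 6. In WT 1, the library low in pore genes, it was -0.05.

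Subunits that assemble with the pores showed no member past the adjusted threshold. Of 10 listed auxiliary subunits 9 were tested, 6 lower and 3 higher in cKO by point estimate, with a median log2 fold change of -0.07 against 0.01 over all genes. At an unadjusted p under 0.05, 2 were lower and 1 higher, where 6.34% of all genes tested were lower and 3.2% higher by that rule. Cacna2d1, an alpha-2-delta subunit that carries channels to the surface and binds gabapentin, was at 184 ± 13.7 CPM in cKO and 206 ± 16.4 CPM in WT (SD, n = 6 each), with -0.17 ± 0.06 (SE) and an edgeR adjusted p of 0.409. Cacna2d3, of the same class, had -0.10 ± 0.04, and Cacnb4, a beta subunit, -0.19 ± 0.10. Cacna2d4, at 2.06 ± 0.292 CPM in cKO and 1.70 ± 0.130 CPM in WT, was higher by point estimate. Cacng1, the muscle gamma subunit, had 0 to 4 counts and was not tested.

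The gamma genes that act mainly as AMPA receptor partners stayed close to 0. All 6 were tested, 3 lower and 3 higher by point estimate, with a median log2 fold change of -0.01 and none at an unadjusted p under 0.05. Cacng4 had 0.10 ± 0.05 (SE), Cacng8 -0.08 ± 0.06, Cacng2 -0.03 ± 0.05 and Cacng3 -0.07 ± 0.12. Nalcn, the sodium leak channel with the same fold as the calcium pores, was at 90.0 ± 3.26 CPM in cKO and 97.4 ± 7.69 CPM in WT, with -0.11 ± 0.05, an unadjusted p of 0.0386 and an edgeR adjusted p of 0.499.

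Regulators that bind the channels and their partners at release sites were split, with 10 lower and 9 higher of 19 tested, a median log2 fold change of -0.01 and none past the adjusted threshold. Rims1, the active-zone scaffold that tethers Cav2 channels, was at 179 ± 10.4 CPM in cKO and 197 ± 15.4 CPM in WT, with -0.14 ± 0.05 (SE). Rrad, a small GTPase that inhibits calcium channels, was near 1 CPM and had 0.36 ± 0.15. Akap5, which anchors kinases at Cav1.2, had -0.10 ± 0.06, and Rem1, a relative of Rrad, 0.27 ± 0.19.

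Further lists hold genes that act on calcium after it has entered. Of 9 tested calcium-activated and store-release channels 8 were lower in cKO by point estimate, with a median log2 fold change of -0.08, 4 of them at an unadjusted p under 0.05 and none past the adjusted threshold. By that rule 6.34% of all genes tested were lower, and among protein-coding genes of at least 10 CPM 18.7% of those spanning 100 to 300 kilobases and 23.9% of the longer ones. By point estimate, 70.3% of those spanning 100 to 300 kilobases and 81.1% of the longer ones were lower. The part of gene span in the counts of these lists was not tested. Ryr2, a ryanodine receptor of the endoplasmic reticulum, was at 305 ± 30.8 CPM in cKO and 370 ± 49.9 CPM in WT, with -0.28 ± 0.09 (SE) and an edgeR adjusted p of 0.363. Ryr3 had -0.28 ± 0.08, Itpr1, the inositol trisphosphate receptor, -0.22 ± 0.07, and Kcnma1, the large-conductance potassium channel opened by calcium, -0.17 ± 0.06.

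Of 8 calcium pumps and exchangers 7 were lower by point estimate, with a median log2 fold change of -0.10. Among protein-coding genes of at least 10 CPM, 25.4% of the shortest span class and 81.1% of the longest were lower by point estimate. At an unadjusted p under 0.05, 2 of the 8 were lower, where 6.34% of all genes tested were, and none of the 8 passed the adjusted threshold. By the unadjusted rule 8.28% of genes spanning 30 to 100 kilobases, 18.7% of those spanning 100 to 300 and 23.9% of longer ones were lower. The part of gene span in the counts of this list was not tested. Atp2b1, a plasma membrane calcium pump, was at 813 ± 56.0 CPM in cKO and 921 ± 61.6 CPM in WT, with -0.18 ± 0.05 (SE) and an edgeR adjusted p of 0.353. Slc8a1, a sodium-calcium exchanger, had -0.20 ± 0.07, its relative Slc8a2 -0.11 ± 0.06, and Atp2b2 -0.11 ± 0.06.

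Of 14 genes that relay calcium to the nucleus 12 were lower by point estimate, with a median log2 fold change of -0.05 and none past the adjusted threshold. Of protein-coding genes at 10 CPM or more, 25.4% of the shortest span class and 81.1% of the longest were lower by point estimate. Camk4, a calmodulin-dependent kinase that acts on the factor encoded by Creb1, was at 19.8 ± 1.43 CPM in cKO and 26.4 ± 4.71 CPM in WT, with -0.41 ± 0.10 (SE), an unadjusted p of 0.00143 and an edgeR adjusted p of 0.326. Nfatc4, a factor activated by calcineurin, had 0.28 ± 0.12 at a low level of 3.56 ± 0.411 CPM in cKO and 2.92 ± 0.526 CPM in WT. Ppp3ca, a calcineurin subunit, had -0.10 ± 0.05 and Creb1 -0.07 ± 0.04.

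Genes whose levels tracked each pore from animal to animal were sought among 10338 other genes of at least 10 CPM. Each genotype's mean was removed from the log2 CPM, and Pearson's r and Spearman's rho were taken over the 12 libraries as a description, with no test, since the points share each library's depth and composition. Cacna1e was closest to Aak1, a kinase of endocytosis (r = 0.96, rho = 0.88), Pclo, an active-zone scaffold (r = 0.96, rho = 0.94), and Nvl (r = 0.95, rho = 0.96). Pclo and Aak1 were lower in cKO by point estimate too, with log2 fold changes of -0.31 and -0.21 and edgeR adjusted p of 0.349 and 0.286.

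For the other Cav2 pores, Cacna1b was closest to Nav1 (r = 0.98), Disp2 (0.96) and Tenm2 (0.94), and Cacna1a to Ddb2 (0.91), Ncoa6 (0.89) and Yes1 (0.89). Among the L-type pores, Cacna1c was closest to Slit3 (0.95), Pcdhgb2 (0.95) and Garem1 (0.93), and Cacna1d to Srgap3 (0.96), Add1 (0.95) and Tbkbp1 (0.94). Among the T-type pores, Cacna1g was closest to Adgra1 (0.96), Sel1l3 (0.95) and Vgf (0.95), Cacna1h to Neurod2 (0.93), Zfp667 (0.89) and Mmp17 (0.89), and Cacna1i to Nek1 (0.98), Apba2 (0.97) and Gm45234 (0.93). Spearman's rho for the genes of these 7 pores lay between 0.64 and 0.97. No gene appeared among the closest 3 of more than 1 pore.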

How the data were processed

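The deposited values are estimated counts of reads for each gene symbol in 12 libraries, which the authors left unscaled. The submitters' processing notes name Salmon 1.3.0 and the build GRCm38. Extraction used Trizol and the library kit was NEB Next Ultra, per the labels. How transcripts were summed to genes, with which annotation and strand setting, is not stated. Expected counts were rounded, filtered with filterByExpr (minimum count 10, minimum total 15), scaled by TMM and tested with edgeR 4.0.16 in R 4.3.3 on genotype alone, with Benjamini-Hochberg adjustment over all 19325 genes. P-values measure the spread between animals. No pair of libraries of a genotype agreed within counting noise (chi-square per degree of freedom at least 8.51). Alternatives used DESeq2 1.42.0, limma 3.58.1, other scalings and filters, a block on animal number and left-out libraries. The edgeR step was tested on simulated data with known changes. Seed matches used RefSeq miRNAs and GENCODE 3′ UTRs of at least 50 bases, and the sequences shown were chosen after the matches were seen. The members, lists and libraries left out were chosen with earlier results of these data known. Named genes are all members, up to 4 of smallest p per list, and the 3 closest genes per member. Cacna1f, Cacng1, Chdh, the markers listed and the genes of the targeted region are named outside that rule.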

Additional observations from a re-analysis of the deposited data

Results flagged for a closer look

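In each genotype the lowest and highest library of every member were examined with Dixon's criterion for 6 samples, which sets the distance to the next library against the whole spread. Among 16 groups of 6 (8 genes in 2 genotypes) 2 met it, where chance gives about 0.8, or 1 in 20. Cacna1g read 140.3 CPM in cKO 4, and the remaining cKO libraries read 82.0 to 103 CPM. Cacna1b read 137 CPM in WT 1, and the remaining WT libraries read 163 to 171 CPM.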

How the results depend on the processing

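No member passed the adjusted threshold under RLE, upper-quartile or no scaling, limma-voom, 3 other low-count filters, the replicate block, any single left-out library, or without WT 2, WT 3 and cKO 4. DESeq2 called 1, Cacna1e, with a log2 fold change of -0.26. Over all genes, the count of calls was 2 with all libraries, 76 in DESeq2, 1 without a low-count filter, and 0 in limma-voom (1847 at an unadjusted p under 0.05, against 1843 in edgeR), with genes of at least 10 CPM (1089), with animal number as replicate block (1724) and without WT 2, WT 3 and cKO 4 (1457). It was 0 to 6 with 1 library left out, 6 without cKO 1 and 0 without any other. Members lower at an unadjusted p under 0.05 numbered 2 under every alternative but left-out libraries, 2 to 4. Signs of small differences turned with single libraries left out. On the log2 scale Cacna1c ranged from -0.075 (without WT 1) to 0.00047 (without WT 6), Cacna1g from -0.16 (without cKO 4) to 0.0023 (without cKO 1), Cacna1h from -0.024 to 0.061 and Cacna1i from -0.019 to 0.062. The causes were not tested. The numbers of the animals did not pair the samples, with correlations of same-numbered deviations from -0.27 to 0.25 and 1 of 6 highest with its own number, and under the block Cacna1e had -0.25 and an adjusted p of 0.483.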
